A study of Mus musculus with 21 samples.

Results

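Mitochondrial ribosomal proteins are the nuclear-encoded proteins of the ribosome that works inside mitochondria, and their transcripts were examined here in single muscle fibers of the mouse. The members were all array probes whose gene name in the array files is Mrpl or Mrps followed by a number. This gave 102 probes of 78 gene names (47 Mrpl with 61 probes and 41 probes for 31 Mrps), out of 55681 probes and 35527 gene names on the arrays. By the RefSeq table, 76 of the 78 are protein-coding genes and 2 are pseudogenes, Mrps36-ps1 and Mrps36-ps2.

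The study freed single myofibers from muscles of CD1 mice, 3 months of age, with collagenase and hybridized the amplified RNA of 1 myofiber per one-color array. The type 1 group held 11 slow myofibers from the soleus of 6 mice, and the type 2B group held 10 fast myofibers from the extensor digitorum longus (EDL) of 6 mice. Of the 9 mice in all, 3 gave myofibers to both groups. Neither group carried a transgene or a treatment. Because all type 1 myofibers came from one muscle and all type 2B myofibers from the other, type and muscle cannot be told apart, and the mice are male by the labels but female by the study's methods. A clipped piece of each myofiber was typed from its protein by SDS-PAGE, and the RNA came from the rest of the same myofiber.

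The mitochondrial ribosome has a large and a small subunit. It translates the few messenger RNAs of the mitochondrial genome, all of which encode parts of the oxidative phosphorylation complexes, so every mitochondrial ribosomal protein has to be made in the cytosol and imported. Slow and fast fibers are known to differ in mitochondrial content, slow fibers of the soleus being rich in mitochondria and type 2B fibers poor.

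The labels were checked first. Myh7, the slow myosin heavy chain, had a median log2 signal of 15.82 over the 11 type 1 myofibers (range 9.22 to 16.28) and of 7.09 over the 10 type 2B myofibers (range 6.78 to 7.84). Myh4, the type 2B myosin, averaged 3.82 ± 2.09 (SD, n = 11), being well above background in 5 of the 11, and 15.43 ± 0.42 (SD, n = 10). The 7 probes of the type 1 list (Myh7, Tnnt1, Tnni1, Tnnc1, Myl3, Atp2a2) were all higher in type 1 and the 7 of the type 2B list (Myh4, Tnnt3, Tnni2, Tnnc2, Mylpf, Atp2a1) all higher in type 2B. One library stood apart. Type 1 replicate 1 had a Myh7 signal of 9.22, against 15.53 or more in the other 10, and a Myh2 signal of 15.22, Myh2 being the myosin of type 2A fibers. The Myh2 probe exceeded the background clearly in 7 of 10 type 1 myofibers with a value and in 2 of 10 of type 2B, and the probe of Myh1, the 2X myosin, did so in 3 of 11 and 8 of 10. Both passed the threshold, Myh2 lower and Myh1 higher in type 2B, but no fold is given because the lower group was mostly not above background. Counts are therefore also given without this myofiber.

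Markers of other cells were measured too. All 3 Ncam1 probes were lower in type 2B (log2 differences from -2.50 to -2.08, with 2, 4 and 9 of 10 type 2B myofibers well above background), out of 5 probes tested of the satellite cell list (Pax7, Ncam1, Myf5, Myod1), and the list's summed log2 signal lay between 10.64 and 13.05 in type 1, against 9.35 to 12.17 in type 2B. In the connective tissue list (Col1a1, Col1a2, Col3a1, Pdgfra, Dcn), Col3a1 was lower in type 2B (log2 difference -2.45), as 1 of 4 probes tested, with summed signals of 8.14 to 12.22 and 7.73 to 9.43. None of the 5 tested endothelial probes (Pecam1, Kdr, Cdh5, Tek, Flt1) and none of the 5 tested blood cell probes (Ptprc, Cd68, Hba-a1, Hbb-b1, Alas2) passed the threshold. The endothelial sums ran from 10.60 to 11.84 and from 10.57 to 12.03, and the blood cell sums from 8.50 to 13.08 and from 8.64 to 9.61. Myf5 and Pdgfra were well above background in no myofiber of either type, and 1 Kdr probe, Cdh5 and Hbb-b1 in no type 2B myofiber. The part of these cells in the results below was not tested. Array brightness also varied, with a 75th percentile of the signal between 335 and 520 on the first of 6 slides and between 52.8 and 180 on the others.

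Transcripts of the mitochondrial ribosome were detected in nearly all myofibers of both types. Of the 102 probes, 89 were well above background in all 21 myofibers, and all 102 passed the filter for the test. The share of the 102 probes well above background in a myofiber lay between 94.1% and 99% in type 1 and between 90.2% and 99% in type 2B. Single genes are given by their own probe below, since levels of different probes are not comparable.

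The comparison of type 2B with type 1 asked which of these transcripts differ between slow and fast myofibers. Few members differed, and each of those that did was lower in type 2B. At an adjusted p under 0.05 (limma with mouse as a random block, Benjamini-Hochberg over all probes tested), 7 of 102 probes, 1 each of 7 genes, were lower in type 2B and 0 were higher. Over all 46922 probes tested, 7.57% passed, 4.09% lower and 3.48% higher in type 2B. The members' 6.86% was thus close to the background in total, while all of it lay in one direction. With Bonferroni's correction 0 members passed, against 1.43% of all probes. At an unadjusted p under 0.05 there were 14 members, all lower in type 2B, which is 13.7% against 18.5% of all probes.

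Most members differed little between the types. The median log2 difference over the 102 probes was -0.17, against 0.03 over all probes tested. Of the 102, 67 were lower in type 2B, against 22367 of the 46922 probes tested in all. In 81 probes the difference was under 0.5 log2 units in size, and in 5 it was over 1. The standard errors of these differences had a median of 0.28 and ran from 0.17 to 0.76. For a typical probe a difference smaller than about 0.5 was thus within the error, before adjustment for the number of probes. The adjusted threshold asked for more, the smallest difference with a call being -0.71 (Mrps18a, SE 0.20). Smaller differences may have gone without a call. The SD between myofibers of a type had a median of 0.56 in type 1 and 0.65 in type 2B over the members, and of 0.75 and 0.82 over all probes tested. The members also gave more signal, with a median mean log2 signal of 9.93 against 6.07 over all probes tested. The comparisons with all probes were not matched for signal.

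**Figure D1:**
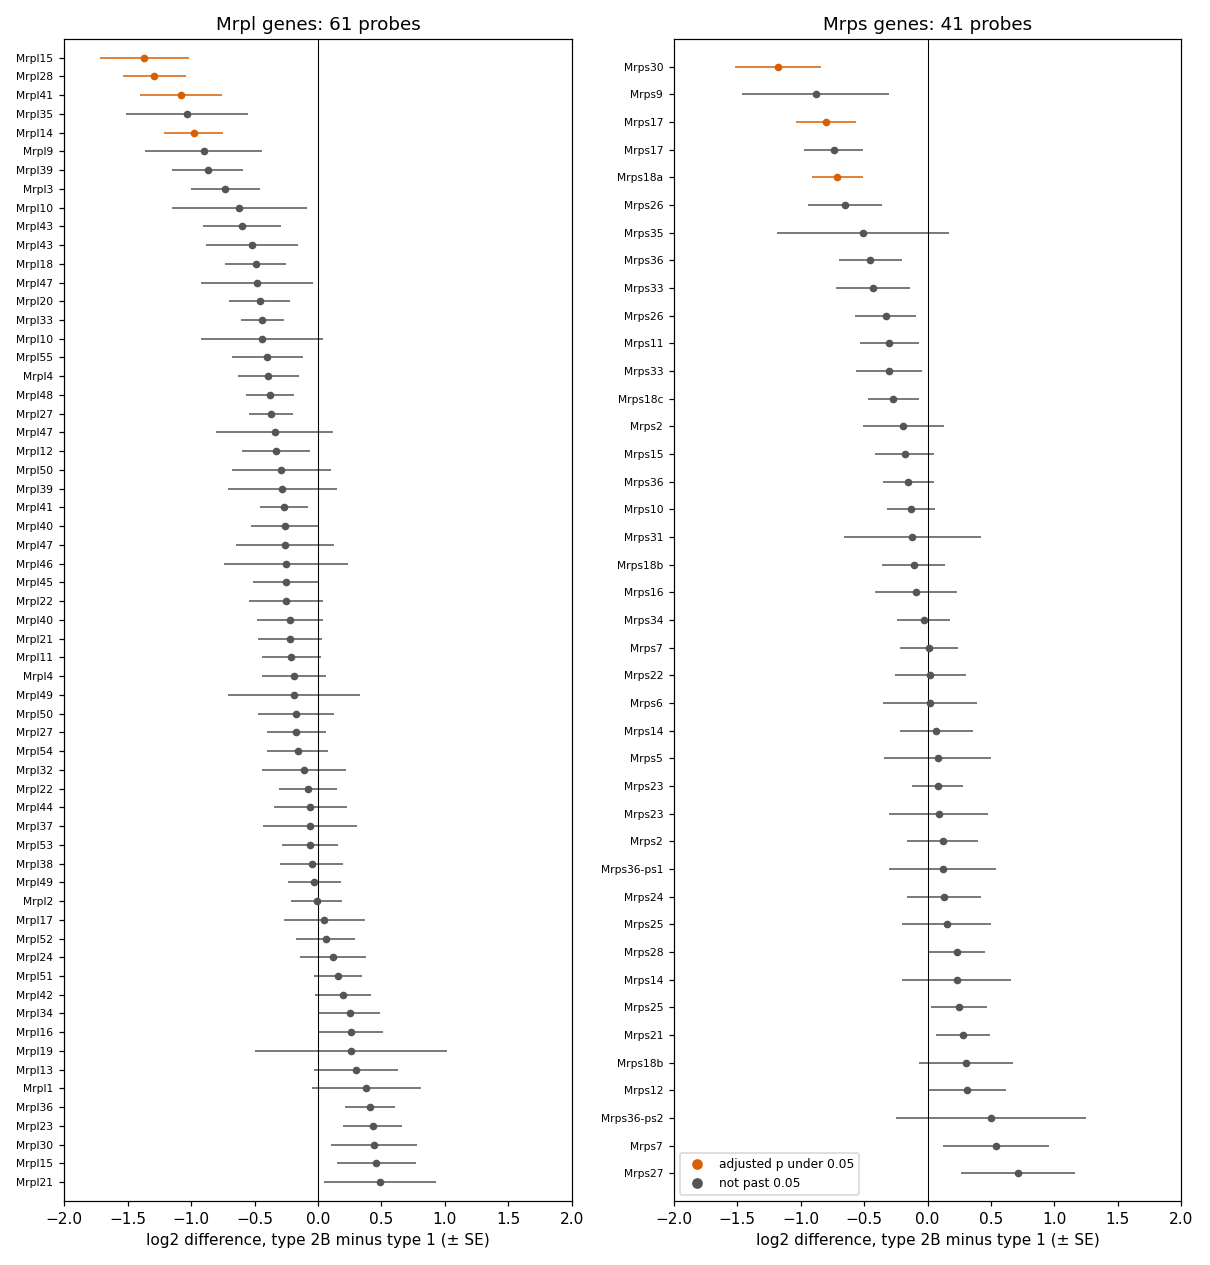
Log2 difference (type 2B minus type 1) with its standard error for each of the 102 probes, sorted by size, with the 61 Mrpl probes on the left and the 41 Mrps probes on the right. The 7 orange points, past an adjusted p of 0.05, all lie left of 0, and 67 of the 102 points do.

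Among genes named for the large subunit, 4 of 61 probes were lower in type 2B (6.56%), beside 7.57% of all probes tested (4.09% lower). The median log2 difference of the 61 was -0.22, with 46 of them below 0. Among genes named for the small subunit, 3 of 41 were lower (7.32%), the median was -0.03, and 21 of the 41 lay below 0. The difference between these sets was not tested. The symbols do not follow the structure of the ribosome throughout. Mrps18a and Mrps30, named for the small subunit, are known as proteins of the large subunit, which leaves Mrps17 as the one gene with a call whose product sits in the small subunit.

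Mrpl28, a protein of the large subunit, had the smallest p of all members. Its log2 signal ran from 8.81 to 10.49 in type 1 with a median of 9.55, and from 7.49 to 9.0 in type 2B with a median of 8.12. The ranges overlapped at their ends, and the means of the 6 type 1 mice lay above those of all 6 type 2B mice. The log2 difference was -1.29 (SE 0.25, adjusted p = 0.0013), a fold of 2.44. An exact permutation test of the mouse means gave p = 0.0022, the smallest that 6 against 6 means allow. The call held with each of the 9 mice left out (adjusted p up to 0.012).

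Mrpl14 lies on the face of the large subunit where the subunits meet and is the site that the assembly factor Malsu1 binds. It ran from 11.33 to 12.86 in type 1 with a median of 12.18, and from 10.48 to 11.85 in type 2B with a median of 11.05. The upper type 2B myofibers reached into the lower type 1 values, but the mouse means did not overlap (exact permutation p = 0.0022). The log2 difference was -0.98 (SE 0.23, adjusted p = 0.0081). The call held with each mouse left out, the highest adjusted p being 0.049.

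Mrps18a, one of 3 mammalian relatives of the bacterial ribosomal protein S18, showed the smallest change and the tightest type 1 values of the 7. It ran from 11.32 to 12.19 in type 1 with a median of 11.8, and from 10.44 to 11.79 in type 2B with a median of 11.0. The mouse means did not overlap (exact permutation p = 0.0022) and the log2 difference was -0.71 (SE 0.20, adjusted p = 0.027). The call was lost when mouse 4, 5 or 9 was left out, with adjusted p up to 0.078. Its relatives did not pass the threshold, with log2 differences of -0.27 (SE 0.20) for Mrps18c and of -0.11 and 0.30 for the probes of Mrps18b.

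Mrps30, a large-subunit protein without a bacterial counterpart, ran from 8.09 to 10.33 in type 1 with a median of 8.59, and from 6.71 to 9.62 in type 2B with a median of 7.62. The spread was wide in both groups and the mouse means overlapped. The log2 difference was -1.18 (SE 0.34, adjusted p = 0.035) and the exact permutation test gave p = 0.026. This call was lost in 6 of the 9 leave-outs, when mouse 2, 3, 5, 7, 9 or 10 was dropped, with adjusted p up to 0.20, and with slide as a fixed block (adjusted p = 0.13). In mouse 4, which gave both types, Mrps30 was higher in the type 2B myofiber by 0.99.

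Mrpl41 was read by a probe that ran from 7.65 to 10.39 in type 1 with a median of 9.44, and from 7.44 to 9.55 in type 2B with a median of 8.04. Nearly the whole type 2B range lay within that of type 1, where 2 myofibers were low. The log2 difference was -1.08 (SE 0.32, adjusted p = 0.041; exact permutation p = 0.015). The call was lost in 7 of the 9 leave-outs, all but those of mouse 2 and mouse 4, with adjusted p up to 0.22.

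Mrps17, a small-subunit protein of the bacterial S17 family, ran from 9.28 to 11.03 in type 1 with a median of 9.91, and from 8.47 to 9.90 in type 2B with a median of 9.24 by the probe that passed. The highest type 2B value lay just under the type 1 median. The log2 difference was -0.80 (SE 0.24, adjusted p = 0.038; exact permutation p = 0.0043), and the call held in 1 of the 9 leave-outs, that of mouse 6, with adjusted p up to 0.10 in the others. Its other probe had nearly the same difference, -0.74 (SE 0.23), and an adjusted p of 0.052.

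Mrpl15, a protein of the large subunit, had the largest difference of all members by one probe. That probe ran from 5.70 to 7.26 in type 1 with a median of 6.58, and from 2.56 to 6.54 in type 2B with a median of 5.40. It was dim, being well above background in 11 of 11 type 1 and 6 of 10 type 2B myofibers, and the lowest value belonged to a single type 2B myofiber. The array of that myofiber was the dimmest of the 21, with a 75th percentile of 52.8 and 38.7% of its spots well above background. The part of array brightness in this difference was not tested. The log2 difference was -1.37 (SE 0.35, adjusted p = 0.013; exact permutation p = 0.0087). Without mouse 3, which gave 7 of the 21 myofibers, the low one among them, the difference was -0.97 and the adjusted p was 0.11. With the low myofiber alone left out, type 2B replicate 10, the call held (-1.08, SE 0.25, adjusted p = 0.0073), whereas those of Mrps18a and Mrpl41 were lost, with adjusted p of 0.051 and 0.064. This alternative was chosen after seeing the data.

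**Figure D2:**
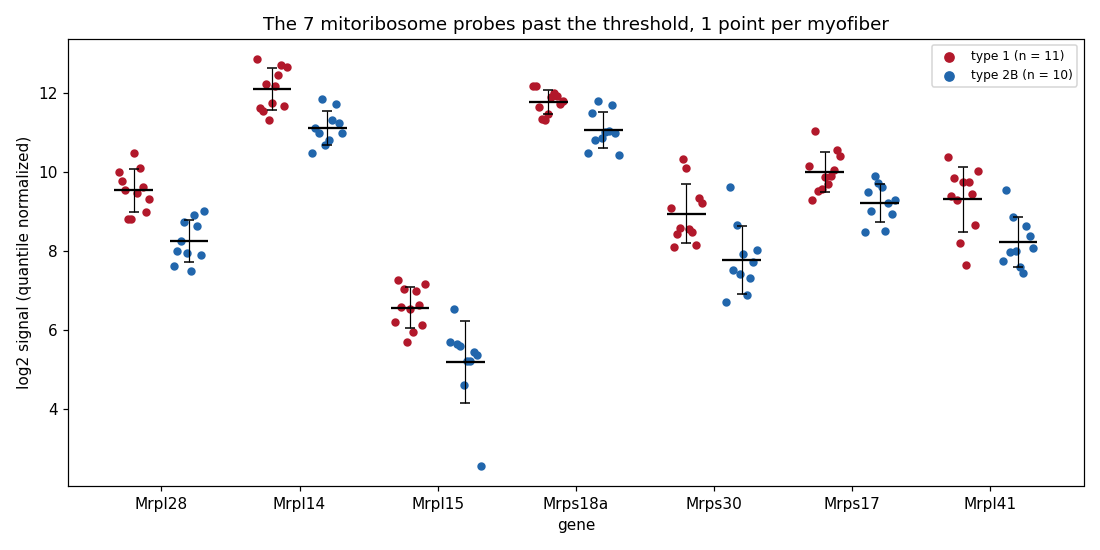
Log2 signal of the 7 probes past an adjusted p of 0.05, 1 point per myofiber (red, 11 type 1; blue, 10 type 2B), with the mean as a line and the SD as a bar. The types overlap in each gene, least in Mrpl28, and 1 type 2B point of Mrpl15 lies at 2.56.

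The fit was repeated without the doubted myofiber. Without type 1 replicate 1, 4 of 102 probes passed, or 3.9% against 7.3% of all probes in the same fit. These were the probes of Mrpl28 (adjusted p = 0.0029), Mrpl14 (0.016), Mrpl15 (0.016) and Mrps18a (0.048). Mrps30, Mrps17 and Mrpl41 then had adjusted p of 0.052, 0.058 and 0.075. The log2 differences of the 7 moved little, to between -1.41 and -0.67.

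Values within a slide and within a mouse gave the direction but no calls. The 7 probes had been chosen from these same myofibers, so that their sign within a slide or a mouse is no independent evidence. On each of the 3 slides that held both types, all 7 probes were lower in type 2B, with median differences of -0.85 in 4 against 4 myofibers, and -1.32 and -0.93 in 2 against 2. Within mouse 3 (3 type 1 against 4 type 2B myofibers) and within mouse 9 (1 against 1) all 7 were again lower. Within mouse 4 (2 against 1) there were 5 of 7, Mrps30 and the dim Mrpl15 probe being higher by 0.99 and 0.13. The values of mice 4 and 9 thus rest on single myofibers. Type 1 replicate 1, the doubted myofiber, is among the type 1 myofibers of mouse 4 and of slide 1. Over all 102 members, the probes lower in type 2B numbered 57, 77 and 55 on the 3 slides. Within mice 3, 4 and 9 they were 47, 72 and 63, with median log2 differences of 0.04, -0.34 and -0.19. With mouse as a fixed block, where the 3 mice that gave both types carry the comparison, 0 members passed the adjusted threshold, against 2.95% of all probes, and 5 had an unadjusted p under 0.05, all lower in type 2B.

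Complete separation of the mouse means was seen for 6 members, all lower in type 2B (5.88% of members, against 2.71% of all probes tested). Besides Mrpl28, Mrpl14, Mrps18a and the other probe of Mrps17, these were Mrpl3, with a log2 difference of -0.73 (SE 0.27, adjusted p = 0.11), and 1 of the 2 probes of Mrpl27, with -0.37 (SE 0.17, adjusted p = 0.22). No member separated the 21 myofibers completely.

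Genes read by more than 1 probe showed how far the difference varied between probes of a gene. There were 23 such genes, and the probes of 19 had differences of the same sign. The gap between the highest and the lowest difference had a median of 0.20 log2 units, beside a median SE of 0.28 for the difference of a member probe. The part of probe position, brightness and error in these gaps was not tested. In 3 genes, Mrpl15, Mrpl41 and Mrps17, 1 of the 2 probes passed the threshold, and in no gene did all probes pass. The positions and the first 30 of the 60 bases of the Mrpl15 and Mrpl41 probes are printed here because the results for these genes depend on which one is read (mm9 coordinates from the array files).

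Mrpl15, probe that passed, chr1:4764533-4764592: ttgatgcactcttctgacttccatggattt
Mrpl15, other probe, chr1:4766862-4767644: gtgttgttactacagccttctatgacccaa
Mrpl41, probe that passed, chr2:24829696-24829755: gccaaaagtttgtctacaaagtggagacag
Mrpl41, other probe, chr2:24828035-24828094: aaaggtggcacacagctgtctgtaactctt

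The Mrpl15 probes differed most among all genes, by 1.84 log2 units. The 60 bases of the other Mrpl15 probe span 783 bases of the genome, which places it across a splice junction. It was bright, with a median of 11.66 in type 1 (range 10.89 to 12.96) and of 11.96 in type 2B (range 11.20 to 13.32), and had a difference of 0.46 (SE 0.31, adjusted p = 0.48). The values of the types lay over each other, so that no difference was detectable with the bright probe, while the signal of the dim one was lower in type 2B. In Mrpl41 both probes leaned the same way, and the other one, at 7.76 ± 0.38 (SD, n = 11) and 7.49 ± 0.30 (SD, n = 10), differed by -0.27 (SE 0.19, adjusted p = 0.49). In Mrps17 the probes lay next to each other and differed between the types by nearly equal amounts. No exon annotation of this build was used here, so the probes are not assigned to exons or untranslated regions.

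**Figure D3:**
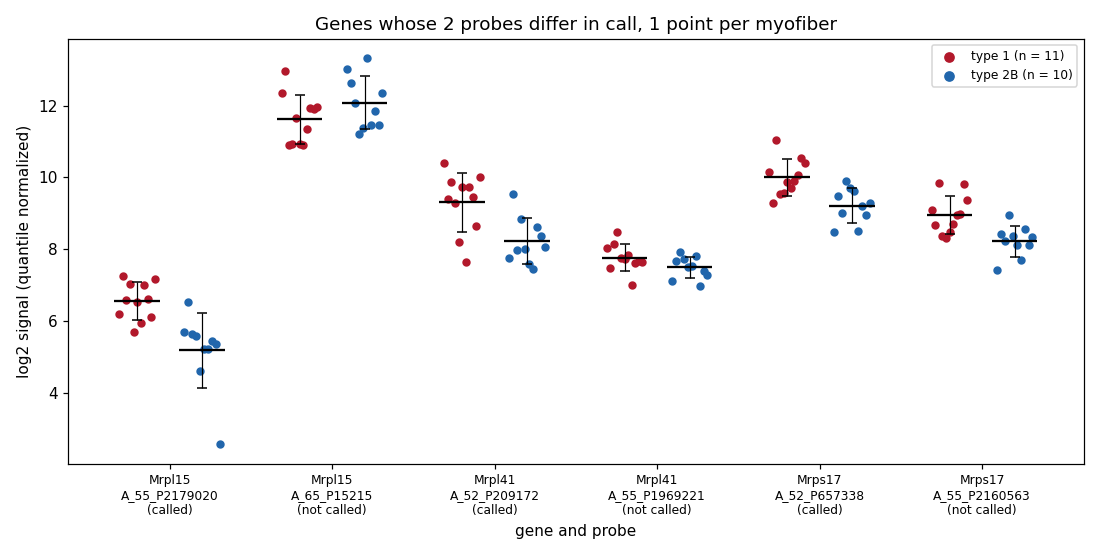
Log2 signal of both probes of Mrpl15, Mrpl41 and Mrps17, 1 point per myofiber (red, 11 type 1; blue, 10 type 2B), with the mean as a line and the SD as a bar. The Mrpl15 probes have opposite differences (-1.37 and 0.46), whereas those of Mrps17 are alike (-0.80 and -0.74).

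Among the genes with the largest differences by their brightest probe, Mrpl35 was the one below 0 that had no call. Its log2 signal lay between 5.69 and 10.03 in type 1, against 3.82 to 7.27 in type 2B, and the difference of -1.03 had an SE of 0.48 (adjusted p = 0.24). None of the 5 genes with the largest positive differences passed. Mrps27, whose product is a pentatricopeptide repeat protein of the small subunit, led them with 0.71 (SE 0.45, adjusted p = 0.45). The others were the bright Mrpl15 probe, Mrpl30 with 0.44 (SE 0.34), Mrpl23 with 0.43 (SE 0.23), and the pseudogene Mrps36-ps2 with 0.50 (SE 0.75). The medians of Mrps36-ps2 lay the other way, at 10.39 in type 1 and 10.14 in type 2B.

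The pseudogenes need care. The Mrps36-ps2 probe (chr13:101505986-101506045, mm9) lies between the Mrps36 probes on the same chromosome and strand, and its signal resembled theirs. In type 1 it ran from 9.74 to 11.08 in 10 myofibers and was 2.24 in the 11th, type 1 replicate 7, where the Mrps36 probes gave 10.74 and 10.68. That single value set its SD of 2.53, against 0.37 in type 2B. It also drew the type 1 mean down to 9.78, under the type 1 median of 10.39, so the positive difference has no weight. Within each slide and each mouse that held both types, none of which includes this value, the difference lay below 0 (from -1.08 to -0.12). Mrps36-ps1 was well above background in 1 of 11 type 1 and 0 of 10 type 2B myofibers, so no fold is given. Mrps36 itself did not pass, with -0.45 (SE 0.25) and -0.15 (SE 0.20). Its product was named as a ribosomal protein but is now known as a subunit of the oxoglutarate dehydrogenase complex.

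None of the 5 brightest genes passed the threshold. Mrps10, Mrpl51, Mrps23 and Mrps34 had log2 differences of -0.13, 0.16, 0.08 and -0.03, with SEs of 0.19 to 0.21. Mrpl33, a small protein of the large subunit, was the brightest, with 13.89 ± 0.37 (SD, n = 11) in type 1 and 13.46 ± 0.20 (SD, n = 10) in type 2B. Its difference of -0.44 (SE 0.17) was small, with an adjusted p of 0.15. The mouse means overlapped, and their exact permutation p was 0.0043 without adjustment.

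The dimmest genes, other than Mrps36-ps1 and Mrpl35, were Mrpl19, Mrpl38 and Mrps9, and the first and the last of these varied most between type 2B myofibers. Mrpl19 ran from 3.33 to 12.82 in type 2B (SD 2.55), with a median of 5.85, and from 4.72 to 8.02 in type 1 (SD 0.92). Mrps9 ran from 4.25 to 10.44 in type 2B (SD 1.86) and from 7.58 to 9.98 in type 1 (SD 0.87), with a difference of -0.88 (SE 0.58, adjusted p = 0.48). Mrpl38 stayed within 6.32 to 8.44 in all 21 myofibers and differed by -0.05 (SE 0.25).

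The set as a whole was described by the mean log2 signal of a myofiber over the 102 probes. It averaged 9.71 ± 0.20 (SD, n = 11) in type 1 and 9.53 ± 0.19 (SD, n = 10) in type 2B. These SDs give the spread between myofibers and not the error of the difference, which was not tested. The mean log2 signal over the 102 probes ran from 9.52 to 10.12 in type 1, with a median of 9.66, and from 9.22 to 9.89 in type 2B, with a median of 9.54. The highest of all was type 1 replicate 1, the myofiber with much Myh2, at 10.12, followed by type 1 replicate 11 at 10.00. In these 2 myofibers 18 and 23 of the 102 probes had their highest type 1 value. The highest type 2B myofiber, replicate 4 at 9.89, lay above 9 of the 11 type 1 myofibers and held the highest type 2B value of 26 probes. The subunits went together at the low end, where type 2B replicate 6 was lowest in both (9.13 for the Mrpl and 9.36 for the Mrps probes), while type 1 replicate 1 led the Mrpl probes at 10.16 and replicate 11 the Mrps probes at 10.07.

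**Figure D4:**
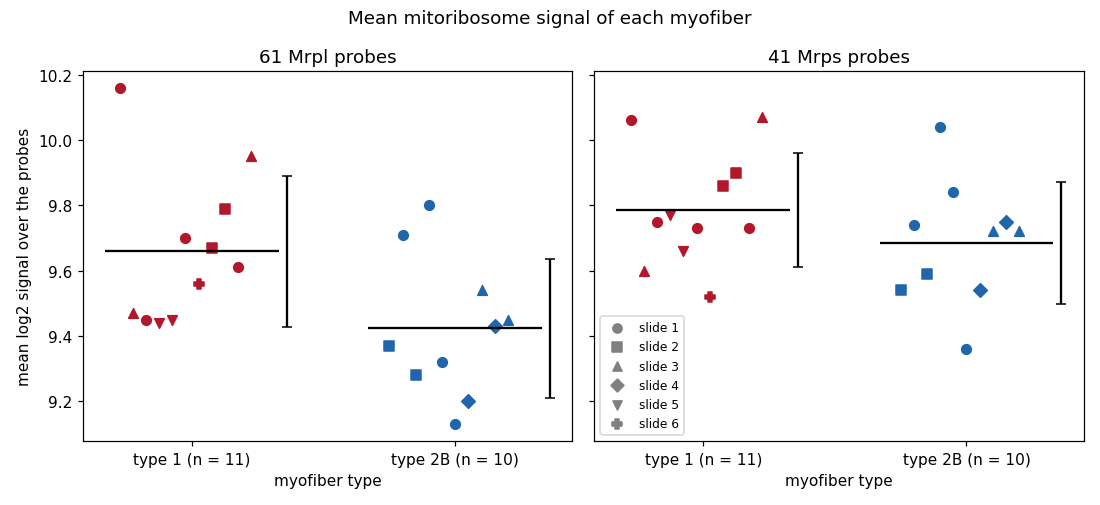
Mean log2 signal over the 61 Mrpl probes (left) and the 41 Mrps probes (right) in each myofiber, with the slide as the symbol, the group mean as a line and the SD as a bar. The types overlap in both panels, and the group means are 9.66 and 9.42 for Mrpl and 9.79 and 9.68 for Mrps.

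On the genome the members were scattered over 17 chromosomes. Chromosome 17 held 9 of the genes with 10 probes. Of these 10, 3 passed, beside 7 of all 102 members and 7.57% of all probes tested (4.09% lower). They were the probes of Mrpl28 (chr17:26261526-26261585, mm9), Mrpl14 (chr17:45835317-45835376) and Mrps18a (chr17:46265584-46265643). The place of the calls on the genome was not tested. The genes Mrpl2 and Mrps10 lie near Mrpl14 and Mrps18a, at chr17:46787021-46787080 and chr17:47515561-47515620, and differed by -0.01 and -0.13 with no call. Chromosome 11 held the most, 10 genes with 15 probes, and none of them passed.

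Genes of this family are known for compact promoters with sites of the ETS factor GABPA (also called NRF-2) and of NRF1, the nuclear respiratory factors. RefSeq promoter windows (GRCm38.p6) were found for 67 of the 78 genes, 73 windows in all, and the 250 bases before the start were searched on both strands. The ETS core CGGAAG was present in 42.5% of the members' windows and in 13.59% of all 32851 windows, and the longer CCGGAAGT, which contains the whole core and so marks a part of the same windows, in 13.7% and 2.88%. The NRF1 letters CGCATGCG were found in 9.6% and 1.55%, and AAGATGGC, from the site of YY1, in 5.5% and 1.56%. These are counts of letters and show no binding.

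Of the 7 genes with a call, 6 had a window, and 2 of these, Mrps17 and Mrps18a, held the ETS core. None held the other letters. The 150 bases before the start are shown for these and for the genes with the smallest p, with the core in capitals on either strand (CTTCCG is the core read from the other strand).

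Mrps18a, GRCm38.p6 chr17:46110854-46111003, plus strand: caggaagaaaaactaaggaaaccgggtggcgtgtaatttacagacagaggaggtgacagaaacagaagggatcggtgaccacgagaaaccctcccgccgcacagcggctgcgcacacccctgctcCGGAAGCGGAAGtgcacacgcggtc
Mrps17, GRCm38.p6 chr5:129715347-129715496, plus strand: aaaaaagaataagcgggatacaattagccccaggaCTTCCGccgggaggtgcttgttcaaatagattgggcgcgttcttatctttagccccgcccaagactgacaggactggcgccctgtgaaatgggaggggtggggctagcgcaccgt
Mrpl28, GRCm38.p6 chr17:26123353-26123502, plus strand: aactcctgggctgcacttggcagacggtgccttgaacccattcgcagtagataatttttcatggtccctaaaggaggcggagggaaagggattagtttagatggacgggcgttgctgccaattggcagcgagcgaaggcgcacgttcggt
Mrpl14, GRCm38.p6 chr17:45686199-45686348, plus strand: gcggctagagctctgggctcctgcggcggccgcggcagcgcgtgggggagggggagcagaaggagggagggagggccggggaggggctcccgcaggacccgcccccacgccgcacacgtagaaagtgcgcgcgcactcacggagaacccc

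Mrps18a carries the core at 2 places in direct succession, close to the start, and Mrps17 carries it once on the other strand. The windows of Mrpl28 and Mrpl14, with the firmest differences, do not hold these letters.

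The rest of the mitochondrial translation apparatus showed few calls as well. Mitoribosome proteins with other names were read by 12 probes (Dap3, Aurkaip1, Chchd1, Ptcd3, Gadd45gip1, Ict1, Mrp63 and Oxa1l, the last an inner membrane insertase to which the ribosome binds). Of these 12, 1 passed (8.33%, beside 7.57% of all probes tested), and it was lower in type 2B. This was Ptcd3, a pentatricopeptide repeat protein of the small subunit, with 10.47 in type 1, 9.52 in type 2B and a log2 difference of -0.94 (SE 0.28, adjusted p = 0.037). Of 22 probes for assembly factors, 18 for translation factors, 23 for mitochondrial tRNA synthetases and 15 for mitochondrial DNA transcription and replication, 0 passed in either direction. Their median differences were -0.08, -0.24, 0.00 and 0.04.

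The 13 probes placed on the mitochondrial genome were a set chosen after the calls were known. Those named ND1, ND3, ND4L, ND5, ND6 and COX1 carry names of genes that this ribosome translates. The others carry no such gene name, and which transcript they read was not tested. None of the 13 passed, all 13 differences lay below 0, and they ran from -0.48 to -0.03 with a median of -0.26.

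Calls were also found among regulators and metabolic enzymes. Among 19 probes for regulators of mitochondrial genes, 4 were lower in type 2B and 0 higher (21.05%, beside 7.57% of all probes tested). Esrrg, a nuclear receptor that drives oxidative genes, was well above background in all 11 type 1 myofibers and in 1 of 10 type 2B myofibers by one probe (adjusted p = 3.1e-07) and 3 of 10 by the other (adjusted p = 1e-06). Its relative Esrrb was so in 11 and 4 (adjusted p = 4.2e-12), and no fold is given for either gene because most type 2B values were not well above background. The coactivator Ppargc1b, above background in all 21, fell by 0.79 on the log2 scale (SE 0.21, adjusted p = 0.017). Among 18 probes of the citric acid cycle, 4 (22.22%) were lower and 0 higher in type 2B. The 4 were those of Idh2 (log2 difference -3.94), Suclg2 (-1.58) and Ogdh (-0.68 and -0.70). The differences of Idh2 and Suclg2, whose probes were well above background in every myofiber with a value, were larger in size than any among the mitochondrial ribosomal proteins.

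Other large complexes gave a scale for the set. For the nuclear-encoded subunits of complex I, 3 of 46 probes (6.52%) were lower in type 2B (Ndufv3, Ndufb3 and Ndufb5). Their list had a median of -0.11, with 33 of 46 below 0. For complexes II to V, 6 of 66 probes (9.09%) were lower, Cox8a with both of its probes, with a median of -0.31 and 63 of 66 below 0. For the cytosolic ribosome, 2 of 174 probes (1.15%) were lower (Rpl3 and Rplp0), with a median of -0.13 and 130 of 174 below 0. None of these lists had a probe higher in type 2B past the threshold. The median of the mitochondrial ribosomal proteins, -0.17, lay between those of the lists, and 67 of their 102 probes were below 0. Differences between lists were not tested.

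**Figure D5:**
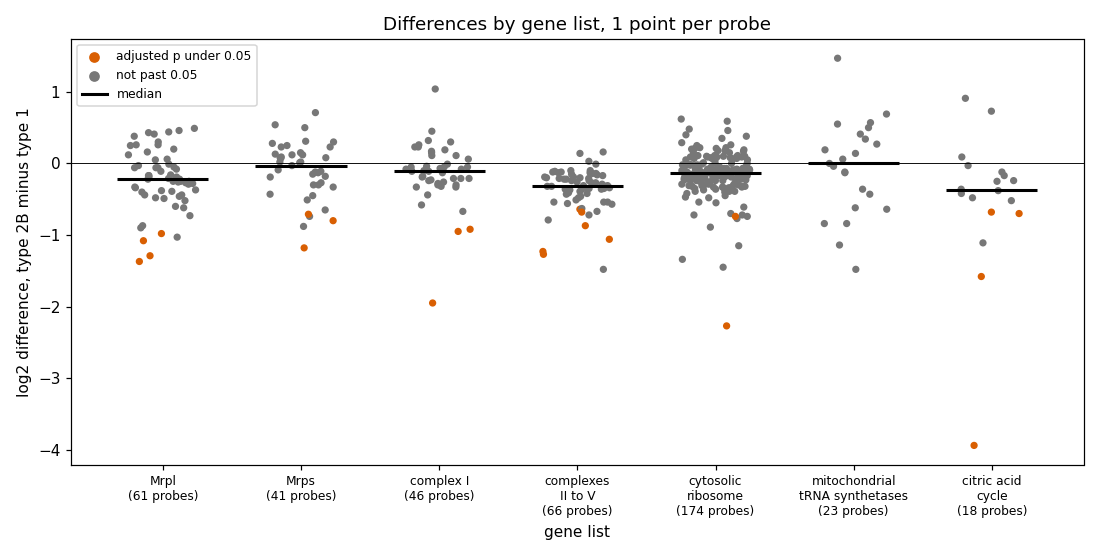
Log2 difference (type 2B minus type 1) of each tested probe in 7 gene lists, with the median as a line and probes past an adjusted p of 0.05 in orange. The medians lie between -0.37 for the citric acid cycle and 0.00 for the mitochondrial tRNA synthetases, and the orange points lie below 0 in each list that has any.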

How the data were processed

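RNA of single myofibers was amplified with a whole transcriptome kit, labelled with Cy3 and hybridized to one-color Agilent mouse arrays (mm9 design), 11 type 1 and 10 type 2B. The deposited intensity values are the processed signals that the authors obtained with Agilent Feature Extraction 10.7.3.1, background subtracted. From these, outlier spots were set to missing, signals were quantile normalized, spots of 1 probe averaged and log2 taken. A probe was tested (46922 of 55681) if the scanner software called it positive and significant in 50% or more of either group, with limma 3.58.1 in R 4.3.3, with mouse as a random block (consensus correlation -0.017). The study's methods name a t-test with permutation p-values and Bonferroni's threshold. Bonferroni's threshold and Welch's test on the linear signal are given as alternatives, and the permutation p-values were not recomputed. Single genes were also tested on 12 means per mouse and type, treated as independent although 3 mice gave 2 means. These exact permutation p-values were not adjusted for the number of probes. Named were genes with a call, the 5 largest differences in each direction and the 5 brightest and 5 dimmest genes by their brightest probe, genes whose probes disagree, and list genes with a call. The members and lists were chosen with earlier results of these data known.

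Arrays give no read depth, and precision is limited by their number. The deposited table of normalized intensity holds values for 4 features of the members, with differences within 0.1 of those here. In it, 2 type 2B columns, replicates 1 and 9, follow each other's array, and the arrays' own files were used as labelled. Which labelling is right was not settled. These myofibers are of mice 3 and 5, so means, leave-outs and differences by these mice depend on it, while the type of the myofibers does not. Fits were tested on simulated data. Replicate numbers did not pair the types (median correlation of deviations -0.03 over 10 pairs).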

Additional observations from a re-analysis of the deposited data

Results flagged for a closer look

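Among the 33 probes of the member genes named in the text, the 10 type 2B myofibers were searched for a value whose distance from its neighbor exceeded the 95% limit of Dixon's test for their range. Such a value was found for 4 probes, where chance gives about 1 in 20. The dim Mrpl15 probe was 2.56 in type 2B replicate 10, Mrpl35 was 3.82 in replicate 7, Mrpl19 was 12.82 in replicate 2, and Mrps34 was 13 in replicate 8. The first is the one that belongs to a probe with a call, and its cause was not tested.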

How the results depend on the processing

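No alternative gave a call higher in type 2B or past Bonferroni's threshold, and none turned the direction of a called probe. The share of all probes past the adjusted threshold, 7.57% beside the 7 members (7 genes), moved too and is given with each count. There were 3 members with unflagged spots missing (4.91% of all probes), 4 with Welch's test on the linear signal (3.24%), 4 without type 1 replicate 1 (7.3%) and 0 with mouse as a fixed block (2.95%). Within slide 1, 2 or 3 alone there were 0, beside 3.01%, 0.03% and 0.0%. The replicate number as a block, which does not pair the samples, gave 3 probes of 3 genes (6.11%). The limma fit on means per mouse and type gave 6 members (6.07%), of which 4 were among the 7 of the main fit. The called probes of Mrps30, Mrpl41 and Mrps17 were lost there, with adjusted p of 0.14, 0.089 and 0.052. Leaving out each of the 9 mice gave 3 to 6 (4.69% to 7.49%), and the other alternatives 5 to 9 (6.17% to 10.13%). The median log2 difference of the members, -0.17, was -0.44 within slide 2, -0.29 with unflagged spots missing, -0.27 with means per mouse, and between -0.29 and -0.12 with a mouse left out. It was nearer 0 with the 75th percentile scaling (-0.08), with mouse as a fixed block (-0.09), and within slide 1 (-0.11) or slide 3 (-0.08). Setting unflagged spots missing moved the median of all probes by -0.12. The cause of these changes was not tested. The leave-outs and single slides also held fewer samples. Mrps17's other probe passed under 6 alternatives and Mrpl33 under 1. Outside the genes named by the rule above, Mrpl3 passed with means per mouse and type. A probe of Mrpl39 did so with a filter on signals well above background and without mouse 3. Over the named probes, 77 values lost a call, 7 gained one and 538 kept their side of the threshold.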
